A study of Mus musculus with 6 samples.

Results

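The 10 smooth muscle contractile genes Acta2, Actg2, Tagln, Cnn1, Myl9, Tpm1, Tpm2, Mylk, Smtn and Myh11 were read in mouse GC1-Spg cells after silencing of the noncoding RNA mrhl. Their members are all probe sets that the array's probe table pairs with exactly 1 symbol, where that symbol is on this list. This gave 21 of the 45037 probe sets that are not controls, with at least 1 for each of the 10 genes. GC1-Spg is an established mouse line labelled as spermatogonial, and the groups were cells given 100 nM of siRNA against mrhl and cells given 100 nM of scrambled siRNA. RNA was taken 44 h after transfection, with 3 biological replicates in each group and a separate 1-colour Affymetrix array for each. The probe table lists no probe set for mrhl, so its silencing, measured by quantitative PCR in the study, could not be read from the arrays. Both groups are transfected cells of the same line, and no untransfected cells were analysed here. Apart from their replicate numbers the labels do not say how the cultures were kept apart, so the p-values measure the spread between these arrays.

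Smooth muscle cells shorten when the motor protein myosin pulls on actin filaments, and calcium switches this on through phosphorylation of the myosin light chain. Many genes of this machinery share a DNA element in their promoters, the CArG box, which binds serum response factor (SRF). SRF acts there with the coactivators myocardin and the myocardin-related factors, which respond to the pool of free actin. In the testis these genes are typical of the peritubular myoid cells, which wrap the seminiferous tubules and move sperm along them.

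The promoters of Acta2 and Myl9 are shown because they hold the CArG elements found among these genes. RefSeq promoter sequences of assembly GRCm38.p6, from 250 bases before to 50 bases after a gene's start, were matched for 7 of the 10 genes, namely Acta2, Cnn1, Myl9, Tpm1, Tpm2, Mylk and Smtn. Each was searched on both strands for the CArG box, and for a CArG-like form with 1 G or C within its core of A and T. Capitals mark the matches, and both sequences run 5′ to 3′ on the strand of the gene, minus at chr19:34255324-34255623 for Acta2 and plus at chr2:156775214-156775513 for Myl9.
Acta2: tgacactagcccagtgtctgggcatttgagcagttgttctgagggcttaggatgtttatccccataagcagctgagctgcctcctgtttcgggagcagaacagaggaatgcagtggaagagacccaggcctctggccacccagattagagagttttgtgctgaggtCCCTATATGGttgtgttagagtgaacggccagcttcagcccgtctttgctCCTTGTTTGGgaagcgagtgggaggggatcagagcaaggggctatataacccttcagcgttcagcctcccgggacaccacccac
Myl9: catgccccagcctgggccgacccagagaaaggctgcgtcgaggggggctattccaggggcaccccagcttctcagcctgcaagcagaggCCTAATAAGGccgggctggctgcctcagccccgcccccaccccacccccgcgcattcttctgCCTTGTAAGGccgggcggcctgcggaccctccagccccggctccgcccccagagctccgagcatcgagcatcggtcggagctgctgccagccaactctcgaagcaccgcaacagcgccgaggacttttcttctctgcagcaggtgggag
The Acta2 window held 2 CArG-like elements, CCCTATATGG at 84 to 75 and CCTTGTTTGG at 34 to 25 bases before the start. The Myl9 window held the exact box CCTAATAAGG at 161 to 152 and the CArG-like CCTTGTAAGG at 99 to 90 bases before the start. Of all 32851 promoters in the table, 1.63% held an exact box, 9.98% held either form and 0.822% held at least 2 matches. The windows of Cnn1, Tpm1, Tpm2, Mylk and Smtn held no match to these letters.

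No difference in a contractile gene after mrhl siRNA passed the test. Of the 21 probe sets, 18 had a mean log2 value of at least 3.62, the 25th percentile of all probe sets, and were tested, and all 10 genes kept at least 1. None of the 18 passed an adjusted p of 0.05 (limma, mrhl siRNA minus scrambled siRNA, smallest adjusted p = 0.965). The same held for all 33778 probe sets tested, where 0 were called (0%). The groups overlapped in all 18, against 8.4% of all tested probe sets in which they did not overlap. At an unadjusted p under 0.05 stood 0 of the 18 and 3.44% of all tested probe sets (limma). Read through the brightest tested probe set of each gene, log2 fold changes were above 0 in 5 genes and below 0 in 5. Their median was -0.0071, against -0.04 over all 14885 genes tested. In RNA from whole cultures, fewer cells that express a gene and less of its RNA per cell cannot be told apart.

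The replicate number accounted for more of the members' spread than the siRNA did. Over the 18 probe sets a median of 75.9% of the variance over the 6 arrays lay between replicate numbers and 6.85% between the siRNA groups. The medians over all 33778 tested probe sets were 57.8% and 12.7%. With more replicate numbers than groups, the first share tends to be larger even where neither has an effect. Deviations from the group means correlated across probe sets at 0.534, 0.201 and 0.567 for arrays of numbers 1, 2 and 3, so the arrays were also compared within pairs of equal number. With the replicate number as a block, 4 of the 18 probe sets had an unadjusted p under 0.05, all 4 higher after mrhl siRNA, against 10.1% of all tested probe sets in either direction and 3.87% in that direction (limma). These were probe sets of Acta2, Myl9, Tpm1 and Tpm2, and none of the 4 passed the adjustment (limma, adjusted p = 0.487 for each). In 5 of the 18 all 3 pairs were higher after mrhl siRNA, against 14.1% of all tested, and in 2 of the 18 all 3 were lower, against 23.4%.

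**Figure D1:**
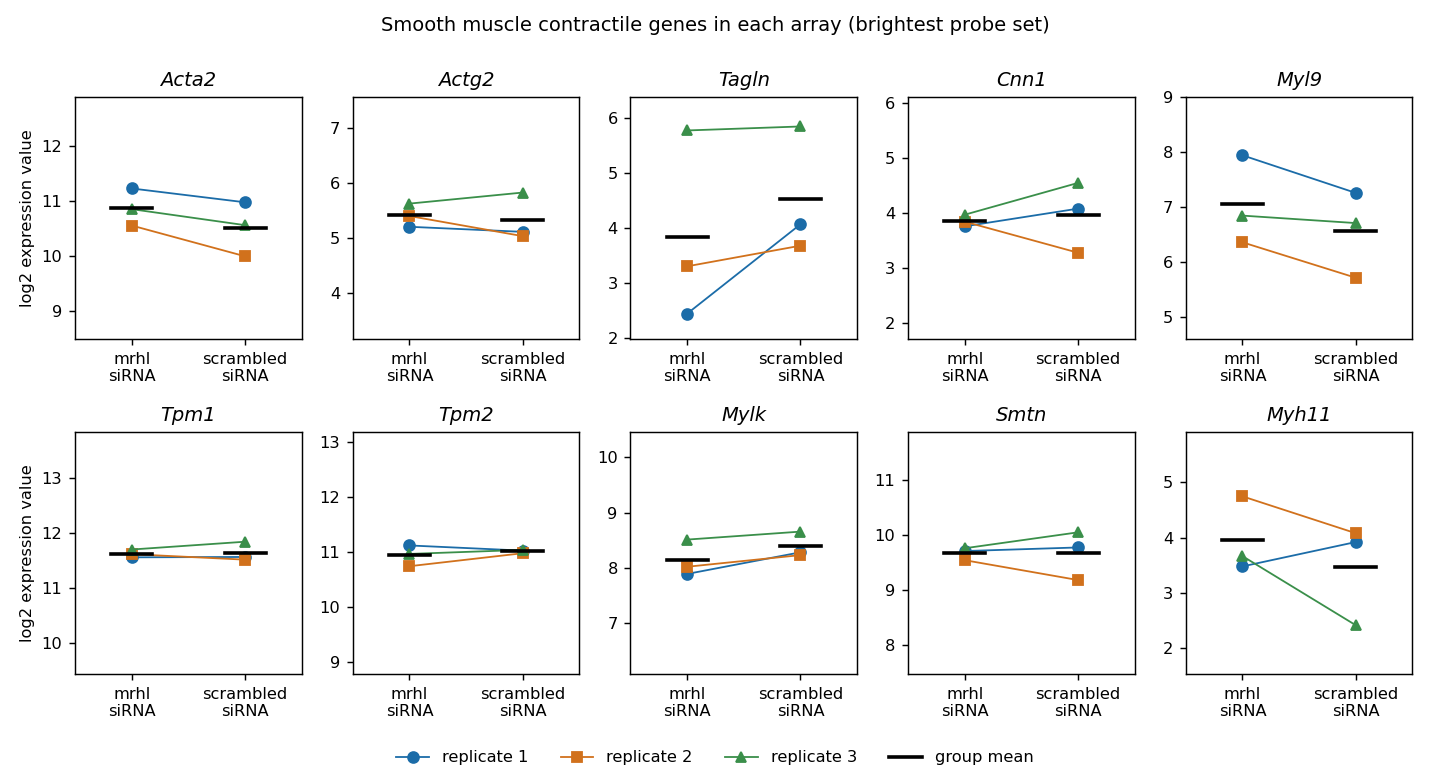
Log2 expression value (vertical axes, each spanning the same range of log2 units) of the brightest probe set of each contractile gene in the 3 mrhl siRNA arrays and the 3 scrambled siRNA arrays. Symbols and lines join arrays of equal replicate number, and black bars are group means. The groups overlap in all 10 genes, and in Acta2 and Myl9 all 3 lines have their mrhl siRNA end higher.

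Of the actin genes, Acta2 encodes the alpha-actin of smooth muscle. Its brightest probe set had log2 values of 11.23, 10.55 and 10.85 after mrhl siRNA, and of 10.97, 9.99 and 10.56 after scrambled siRNA, for replicates 1, 2 and 3. Scrambled siRNA replicate 2 was the lowest array and mrhl siRNA replicate 1 the highest, and the groups overlapped. The means were 10.88 ± 0.34 after mrhl siRNA and 10.51 ± 0.49 after scrambled siRNA (SD, n = 3 each). At 0.37 (SE 0.283, 95% interval -0.30 to 1.03) the log2 fold change of Acta2 missed the threshold (limma, adjusted p = 0.965). Within pairs the differences were 0.25, 0.56 and 0.29, with mrhl siRNA higher in 3 of 3. With the replicate block the standard error was 0.121 and the unadjusted p 0.028 (limma, adjusted p = 0.487). Without scrambled siRNA replicate 2 the log2 fold change of Acta2 was 0.11, without mrhl siRNA replicate 1 it was 0.19, and without scrambled siRNA replicate 1 it was 0.60.

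The other probe sets of Acta2 were dim and gave no such difference. The second had 4.50, 4.23 and 4.46 after mrhl siRNA, against 4.75, 4.25 and 4.10 after scrambled siRNA, with a log2 fold change of 0.03 (SE 0.201). The third lay below the level for testing, at 0.76 to 2.91 over the 6 arrays. The bright probe set has the suffix _s_at, by which Affymetrix marks probe sets that can match transcripts of several genes. Actins are closely alike in sequence, so its signal may hold other actin transcripts.

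Actg2, the gamma-actin of smooth muscle typical of gut, was read through its only probe set. It had 5.21, 5.40 and 5.63 after mrhl siRNA, against 5.11, 5.04 and 5.83 after scrambled siRNA. The pairs lay on both sides of 0, and the log2 fold change was 0.09 (95% interval -0.48 to 0.65; limma, adjusted p = 0.981).

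Of the myosin genes, Myl9 showed the same order of arrays as Acta2. It encodes the regulatory light chain whose phosphorylation starts contraction. Myl9 had 7.94, 6.37 and 6.85 after mrhl siRNA, and 7.26, 5.72 and 6.71 after scrambled siRNA. In both groups replicate 1 was the highest and replicate 2 the lowest, and the groups overlapped. The log2 fold change of Myl9 was 0.49 (SE 0.495, 95% interval -0.67 to 1.65; limma, adjusted p = 0.965). Within pairs the differences were 0.68, 0.64 and 0.14, higher in 3 of 3 pairs, with a standard error of 0.152 and an unadjusted p of 0.0231 under the replicate block (limma, adjusted p = 0.487). Without mrhl siRNA replicate 1 or scrambled siRNA replicate 2 the value for Myl9 was 0.04 or 0.07, and without mrhl siRNA replicate 2 or scrambled siRNA replicate 1 it was 0.83 or 0.84.

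Mylk encodes the kinase that phosphorylates this light chain. Its brightest probe set had 7.88, 8.02 and 8.51 after mrhl siRNA, against 8.28, 8.23 and 8.65 after scrambled siRNA. It was lower after mrhl siRNA in 3 of 3 pairs, with differences of -0.39, -0.21 and -0.14, yet the groups overlapped, because both arrays of number 3 were the highest of their group. At -0.25 (SE 0.213, 95% interval -0.75 to 0.25) Mylk missed the threshold without the block (limma, adjusted p = 0.965) and with it (limma, adjusted p = 0.519). The other probe sets of Mylk had log2 fold changes of 0.03 and 0.14, of the opposite sign.

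Myh11, the heavy chain of smooth muscle myosin and a defining gene of the mature cell, was dim. Its tested probe set had 3.48, 4.75 and 3.66 after mrhl siRNA, against 3.92, 4.08 and 2.41 after scrambled siRNA. The means of 3.96 after mrhl siRNA and 3.47 after scrambled siRNA lay on either side of the level for testing, and the log2 fold change was 0.49 (SE 0.505; limma, adjusted p = 0.965). Whether such dim signals lie above background was not tested. Without scrambled siRNA replicate 3 it was -0.04. The other Myh11 probe set lay at 2.81 to 3.47 and was not tested.

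The tropomyosins, which lie along actin filaments, were read by several bright probe sets with narrow intervals around 0. The brightest Tpm1 probe set had 11.56, 11.62 and 11.71 after mrhl siRNA, against 11.57, 11.52 and 11.85 after scrambled siRNA. Its log2 fold change was -0.016, with a 95% interval of -0.37 to 0.33. The next had -0.025, with an interval of -0.41 to 0.36. Another, dimmer Tpm1 probe set had 7.43, 7.73 and 8.89 after mrhl siRNA, against 6.73, 7.71 and 8.06 after scrambled siRNA. Its pairs differed by 0.70, 0.02 and 0.83, the log2 fold change was 0.52 (SE 0.458), and the unadjusted p under the replicate block was 0.0399 (limma, adjusted p = 0.487). The remaining Tpm1 probe set lay below the level for testing, at 3.14 to 3.91. Probe sets of Tpm1 can read different transcripts of the gene, and the files do not say which ones.

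The 4 probe sets of Tpm2 split in the same way, with small values for the bright ones. The brightest had 11.12, 10.74 and 10.97 after mrhl siRNA, against 11.03, 10.98 and 11.04 after scrambled siRNA, a log2 fold change of -0.07 (95% interval -0.42 to 0.28). The second had 0.07. The third, with the suffix _x_at that Affymetrix gives where some probes may match other sequences, had 9.44, 8.87 and 8.73 after mrhl siRNA, against 9.12, 8.37 and 8.50 after scrambled siRNA. Its differences within pairs were 0.32, 0.50 and 0.23, the log2 fold change was 0.35 (SE 0.268), and the unadjusted p under the replicate block was 0.0281 (limma, adjusted p = 0.487). The fourth had 0.24 (SE 0.368), with pairs on both sides of 0. The plot of differences by probe set shows that the dimmer probe sets of Tpm1 and Tpm2 lay to the right of the bright ones.

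**Figure D2:**
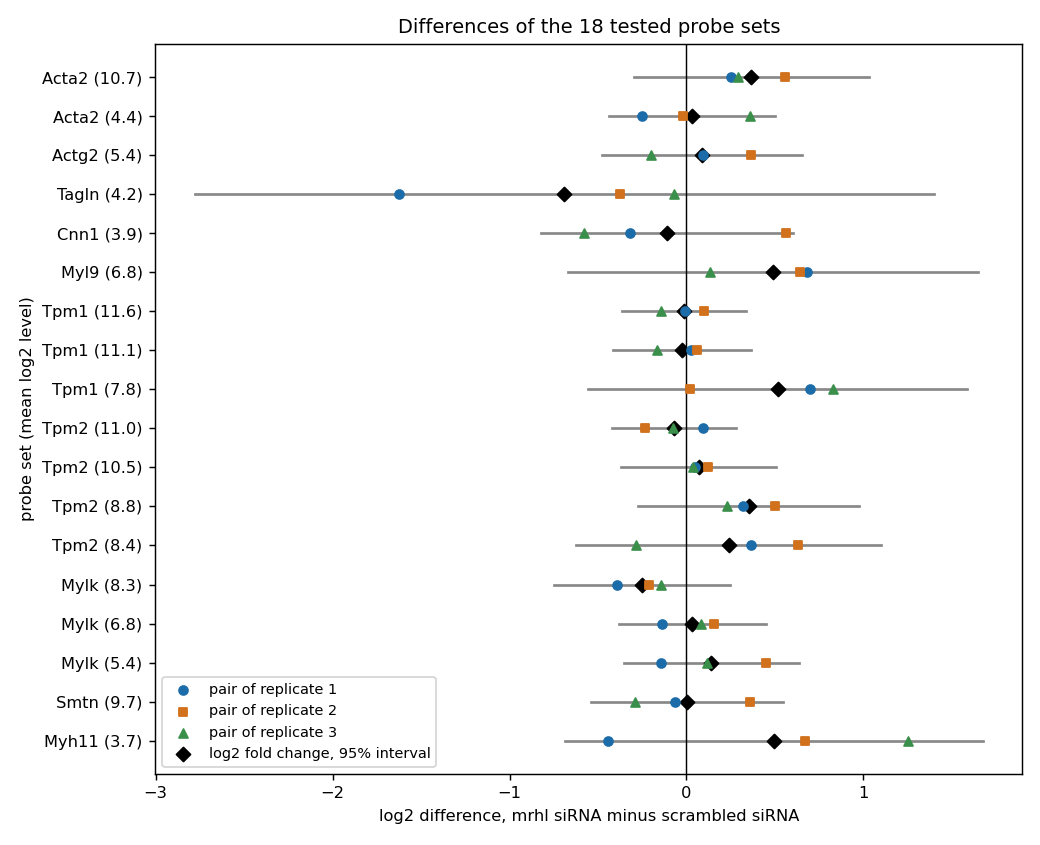
Log2 difference, mrhl siRNA minus scrambled siRNA (horizontal axis), for the 18 tested probe sets (vertical axis, with each one's mean log2 level). Black diamonds are the log2 fold changes of the fit without a block with their 95% intervals, and coloured symbols are differences between arrays that share a replicate number. All 18 intervals include 0, and the 3 pairs of the bright Acta2 probe set lie at 0.25 to 0.56.

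The genes of 3 further actin-binding proteins of contractile cells gave no call either. Tagln encodes transgelin, a calponin-related protein and classical SRF target. It had 2.44, 3.30 and 5.77 after mrhl siRNA, against 4.07, 3.68 and 5.84 after scrambled siRNA. Both arrays of number 3 stood above 5.7 and the other 4 at 4.07 or less, so number 3 set the spread in both groups. The log2 fold change of Tagln was -0.69 (SE 0.892, 95% interval -2.78 to 1.40; limma, adjusted p = 0.965). It was lower in 3 of 3 pairs, with differences of -1.62, -0.37 and -0.07. The values of mrhl siRNA replicates 1 and 2 both lay below the level for testing. Without mrhl siRNA replicate 1 the log2 fold change of Tagln was 0.0076. Cnn1, which encodes calponin of smooth muscle, was also dim, at 3.76, 3.84 and 3.97 after mrhl siRNA, against 4.08, 3.28 and 4.54 after scrambled siRNA. Its log2 fold change was -0.11 (SE 0.304), and 0.18 without scrambled siRNA replicate 3. Smtn, which encodes smoothelin, had 9.70, 9.54 and 9.75 after mrhl siRNA, against 9.77, 9.18 and 10.04 after scrambled siRNA, with means of 9.66 in both groups. Its log2 fold change was 0.0021 (95% interval -0.54 to 0.55).

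The genes did not follow the replicate numbers in the same way. Averaged over both groups, Acta2, Myl9 and Tpm2 were highest in number 1, Myh11 in number 2, and Actg2, Tagln, Cnn1, Tpm1, Mylk and Smtn in number 3. Acta2 and Myl9 were both lowest in number 2, at 10.27 and 6.04, against 11.10 and 7.60 in number 1. Tagln was lowest in number 1, at 3.25, against 5.81 in number 3. The poly-A control transcripts, which are added to the RNA before labelling, set number 1 apart from the others. The mean of their 24 rows was 4.37, 7.46 and 8.10 in mrhl siRNA replicates 1, 2 and 3, and 4.27, 8.45 and 7.84 in scrambled siRNA replicates 1, 2 and 3. Both arrays of number 1 were thus low, while the array means of the 18 hybridization control rows were 9.79 to 10.02 after mrhl siRNA and 9.43 to 9.97 after scrambled siRNA. The labels name no source of this difference, and its part in the contractile genes' spread was not tested.

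**Figure D3:**
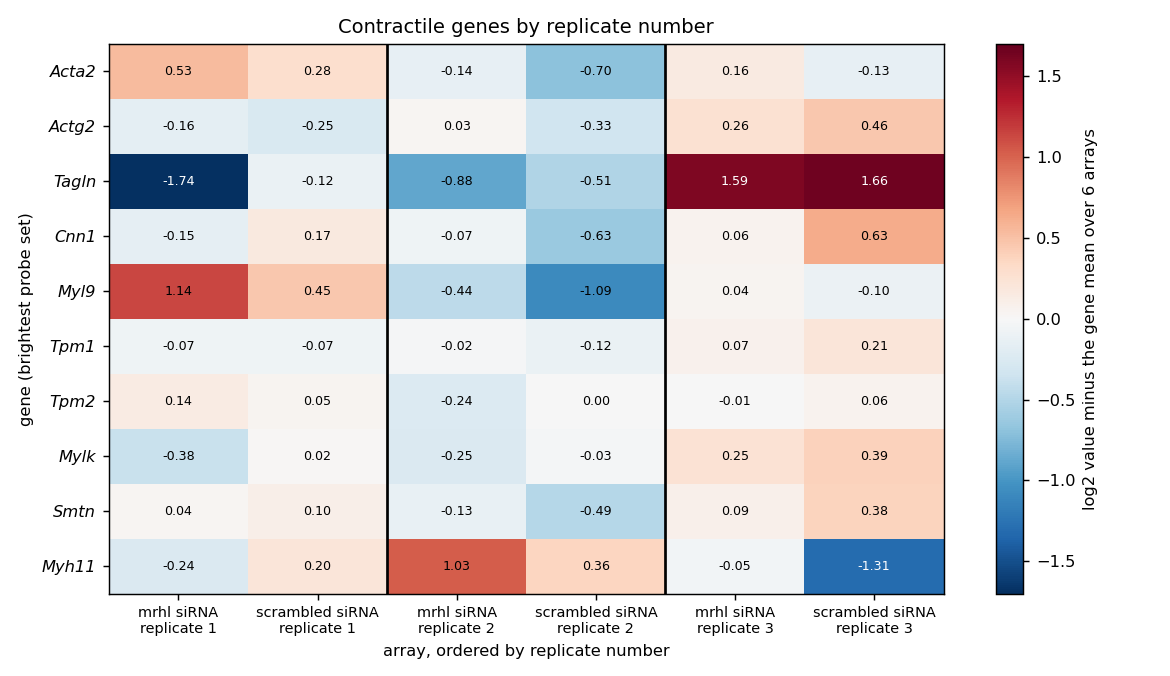
Log2 value minus the gene's mean over the 6 arrays (colour and printed value) for the brightest probe set of each contractile gene (rows) in each array (columns), ordered by replicate number with mrhl siRNA left of scrambled siRNA. Acta2 and Myl9 are above their means in both arrays of number 1 and lowest in scrambled siRNA replicate 2, while Tagln is above its mean only in the arrays of number 3.

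Regulators of these genes gave no call. Of 14 SRF pathway genes on the array 12 were tested, 6 with positive and 6 with negative log2 fold changes, and 0 passed (limma, adjusted p of 0.965 or more; 0 at an unadjusted p under 0.05). Their median was -0.0014. Srf itself stood at 8.27 ± 0.19 after mrhl siRNA and 8.26 ± 0.16 after scrambled siRNA (SD, n = 3 each), a log2 fold change of 0.0064 (95% interval -0.38 to 0.39). The coactivator genes Mrtfa and Mrtfb had 0.15 (SE 0.248) and -0.19 (SE 0.194). Myocd, the gene of myocardin, was below the level for testing in its brighter probe set, at a mean of 2.87. By smallest p stood Fhl2, an SRF-binding cofactor, at -0.23 (SE 0.177), and Elk4, an ETS partner of SRF, at -0.15 (SE 0.144).

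Related muscle and cytoskeletal genes gave no call. Among 25 tested other smooth muscle genes 13 were positive and 12 negative, with a median log2 fold change of 0.04 and 0 past the test (limma; 0 at an unadjusted p under 0.05). With the replicate block 2 of the 25 had an unadjusted p under 0.05, Pln and Pgm5, both higher after mrhl siRNA, against 10.1% of all tested probe sets in either direction (limma, adjusted p = 0.487 for each). Pln, which encodes the calcium pump regulator phospholamban, had 0.61 (SE 0.353; limma, adjusted p = 0.965), with pairs of 0.59, 0.77 and 0.47 and an unadjusted p of 0.00328 under the block. Csrp1, a LIM protein of the actin cytoskeleton, had 0.25 (SE 0.173). Desmin, encoded by Des, had 0.04 (SE 0.302), and Lmod1, a leiomodin of smooth muscle, was below the level for testing. Of 24 tested nonmuscle actin and myosin genes 13 were positive and 11 negative, with a median of 0.03 and 0 past the test (limma; 0 at an unadjusted p under 0.05). The cytoplasmic actin genes Actb and Actg1 had 0.06 (95% interval -0.28 to 0.39) and -0.05 (95% interval -0.41 to 0.31), the nonmuscle myosin gene Myh10 had -0.18 (SE 0.160) and Tagln2, a nonmuscle relative of Tagln, had 0.17 (SE 0.152). Of 28 striated muscle genes 18 were tested, 10 positive and 8 negative, with a median of 0.07 and 0 past the test (limma; 0 at an unadjusted p under 0.05). With the replicate block 5 of the 18 had an unadjusted p under 0.05, against 10.1% of all tested probe sets in either direction (limma). Of these, Actn3, Ckm and Myh7 were higher and Myh3 and Tnni1 lower after mrhl siRNA (limma, adjusted p = 0.487 for each). No SRF pathway gene or nonmuscle gene had an unadjusted p under 0.05 with the block. The dim cardiac and slow muscle myosin gene Myh7 had 0.31 (SE 0.156) and Ckm, the muscle creatine kinase, 0.40 (SE 0.221). The groups did not overlap in Myh7, higher after mrhl siRNA, and in the nonmuscle gene Capza1, lower at -0.07 (SE 0.129). These were 1 of the 18 striated and 1 of the 24 nonmuscle genes tested, against 8.4% of all tested probe sets.

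**Figure D4:**
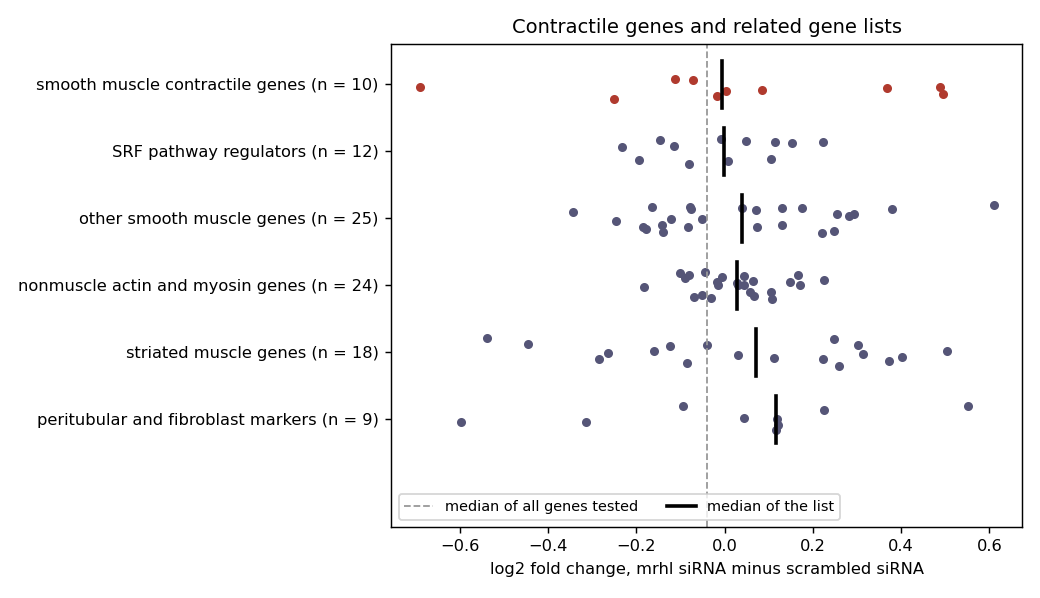
Log2 fold change, mrhl siRNA minus scrambled siRNA (horizontal axis), of each tested gene in the contractile list and 5 related lists (rows). Points are genes read through their brightest probe set, black bars are list medians, and the dashed line is the median of all 14885 genes tested. The list medians lie between -0.0071 for the contractile genes and 0.12 for the peritubular and fibroblast markers.

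Markers of cell types were compared with the label of the line. Of 12 peritubular and fibroblast markers 9 were tested, among them Dcn, the proteoglycan decorin, at a log2 level of 12.58 after mrhl siRNA and 12.67 after scrambled siRNA, and Vim, the intermediate filament protein vimentin, at 12.97 after mrhl siRNA and 12.92 after scrambled siRNA. Lum, Pdgfrb and Thy1 of this list lay below the level for testing, at means of 2.56, 3.60 and 2.35. Of 13 germ cell markers on the array 8 were tested, and Ddx4, Dazl, Mael, Sohlh1 and Tex101, which mark germ cells, lay below the level for testing. The tested germ cell markers with the highest means were Uchl1 at 7.49, Etv5 at 6.59, Id4 at 6.35, Gfra1 at 5.91 and Zbtb16 at 5.10, all known from undifferentiated spermatogonia. Sall4, Stra8 and Kit had means of 4.16, 3.69 and 3.62. The median level over all probe sets was 5.23, and Zbtb16, Sall4, Stra8 and Kit lay below it. All 9 Sertoli cell markers on the array were tested, with means from 3.72 for Fshr to 12.22 for Clu. Among them Wt1 stood at 10.76 and Sox9 at 7.19. Gata1, Rhox5, Dhh, Amh and Cldn11 had means of 6.26, 5.61, 5.29, 4.96 and 3.78. Amh, Cldn11 and Fshr lay below the median level of 5.23. Over the tested genes alone, array means of the peritubular and fibroblast list were 9.07 to 9.55 after mrhl siRNA and 9.17 to 9.52 after scrambled siRNA, and those of the germ cell list were 5.32 to 5.36 after mrhl siRNA and 5.26 to 5.49 after scrambled siRNA. Those of the Sertoli cell list were 6.48 to 6.67 after mrhl siRNA and 6.56 to 6.81 after scrambled siRNA. No marker passed the test (limma, adjusted p of 0.965 or more). At an unadjusted p under 0.05 stood 1 of 9 peritubular and fibroblast markers, higher after mrhl siRNA, 1 of 9 Sertoli cell markers and 1 of 5 blood and endothelial markers, both lower, and 0 of the germ and Leydig cell markers, against 3.44% of all tested probe sets (limma). The first was Nr2f2, a nuclear receptor of interstitial and peritubular cells, at a log2 fold change of 0.55 (SE 0.223), and the others were Dhh and Cd14. The groups did not overlap in S100a4 and Zbtb16, higher after mrhl siRNA, and in Dhh and Cd14, lower. Each was the only such tested marker of its list, against 8.4% of all tested probe sets. With the replicate block, Etv5, Dhh and Cd14, all lower, had an unadjusted p under 0.05 (limma). Here too each was alone in its list, against 10.1% of all tested probe sets in either direction. Tcf21, a mesenchymal factor, had -0.60 (SE 0.292). The 2 smallest p in each of the other lists belonged to Kit at -0.39 and Stra8 at 0.43 among germ cell markers, Dhh at -0.63 and Rhox5 at -0.27 among 9 Sertoli cell markers, Cyp11a1 at 0.38 and Hsd3b1 at -0.13 among 3 Leydig cell markers, and Cd14 at -0.37 and Kdr at -0.29 among 5 blood and endothelial markers.

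The genes whose pattern over the 6 arrays was most like the mean of the 10 contractile genes were Soga1, Ccdc61, Mmp2, Zfp335 and Cnih4. Their Pearson correlations with it lay between 0.991 and 0.993, and they were picked as the highest of 19435 probe sets. That mean, in log2 units around each gene's own average, was -0.09, -0.11 and 0.24 in mrhl siRNA replicates 1, 2 and 3, and 0.08, -0.35 and 0.23 in scrambled siRNA replicates 1, 2 and 3. The values were not scaled, so dim Tagln, whose means by number spanned 2.55, weighed more than Tpm1 or Tpm2, spanning 0.21 each. Likeness to the mean is therefore not likeness to each gene. Mmp2, which encodes a matrix metalloprotease, had 8.53, 8.41 and 9.03 after mrhl siRNA, against 8.81, 8.11 and 8.93 after scrambled siRNA. Its log2 fold change was 0.04 (SE 0.265), and those of the other 4 lay between 0.014 and 0.07.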

How the data were processed

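RNA from 6 GC1-Spg cultures was hybridized to 6 arrays, grouped by sample title. The deposited values are log2 expression values, a scale read from their range. GCOS and PLIER were used, per the submitters' processing notes, with no settings, background correction or normalization stated. The deposited log2 values were used unchanged, their medians lying within 0.11 of each other. The 64 control rows were left out of tests. The probe table paired 34945 probe sets with 1 symbol, 932 with several and 9160 with none, and 34741 had a gene ID in the GRCm38.p6 gene table.

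Groups were compared with limma 3.58.1 in R 4.3.3 over 33778 probe sets, with Benjamini-Hochberg adjustment over all of them, a threshold of 0.05, and 95% intervals. A gene was read through its brightest tested probe set. Named genes are all members and, per list, the 2 of smallest p where none passed, besides Srf, Mrtfa, Mrtfb, Myocd, Actb and Actg1, and the 5 probe sets most like the members' mean. Des, Lmod1, genes below an unadjusted p of 0.05 or without overlap, and marker genes named for their level were added afterwards. Members and lists were chosen with earlier results of these data known. Equal replicate numbers were read as pairs because each correlation of their deviations exceeded 0.1. The range for unequal numbers was -0.518 to 0.0684. These values are not independent of the former, because deviations from a group's mean cancel within the group. The fits were tested on simulated data. Alternatives were other filters, normalizations, variance models and array weights, the replicate block, arrays left out, and a mean over each gene's probe sets; the unadjusted count with the block was added after seeing the data. Figures were drawn with matplotlib 3.10.9. The number of arrays limits the precision, with a median standard error of 0.192, and 0.132 with the block.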

Additional observations from a re-analysis of the deposited data

How the results depend on the processing

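No contractile probe set passed the threshold in the fit as reported or in any alternative fit, including the replicate block (limma, smallest adjusted p among the members = 0.487) and that block with a trended, robust variance model (limma, 0.232). Leaving out each array, or each replicate number, gave 0 members and 0 of all probe sets each time. Over all probe sets the count was 0, and 2 with the block and the trended, robust model, Col3a1 and Smarca4. By other rules, over 33778 tested, it was 2839 (8.4%) where groups did not overlap. It was 1163 (3.44%) at an unadjusted p under 0.05 and, with the replicate block, 3411 (10.1%) (limma). Of the 18 tested member probe sets, 4 had an unadjusted p under 0.05 with the block (limma). All 4 were higher after mrhl siRNA, against 3.87% of all tested probe sets in that direction. The log2 fold changes of Acta2, Myl9 and Mylk kept their direction in all 18 alternatives each, over 0.11 to 0.60, 0.042 to 0.84 and -0.44 to -0.025. The filters, the replicate block and the trended, robust variance model cannot change a log2 fold change, so only the other alternatives could turn a sign. For Myl9, with a single probe set, the mean over probe sets could not turn it either. Actg2 and Smtn had -0.058 and -0.081 with array weights, Tpm1 had 2.7e-05 after quantile normalization, and Tpm1 and Tpm2 had 0.11 and 0.15 as the mean of all probe sets; the cause was not tested. With single arrays left out, the signs of Actg2 (-0.059 to 0.34), Tagln (-1.66 to 0.0076), Cnn1 (-0.46 to 0.18), Tpm1 (-0.079 to 0.084), Tpm2 (-0.16 to 0.028), Smtn (-0.24 to 0.19) and Myh11 (-0.036 to 0.80) turned. They turned without scrambled siRNA replicate 3 for Cnn1, Tpm1 and Myh11, without mrhl siRNA replicate 1 for Tagln, Tpm1 and Smtn, without mrhl siRNA replicate 2 for Tpm2, and without mrhl siRNA replicate 3, or scrambled siRNA replicate 2, for Actg2 and Smtn; Actg2 also turned without scrambled siRNA replicate 1. Leaving a replicate number out in both groups turned Cnn1 and Tpm1 to 0.12 and 0.046 (number 3), and Actg2, Tpm2 and Smtn to -0.054, 0.010 and -0.18 (number 2). A filter at the median level gave no value for Tagln, Cnn1 and Myh11, and the mean of both Myh11 probe sets lay below the filter.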
